A study of Mus musculus with 33 samples.

Results

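Crypt line #iii was compared with lumen lines #i and #ii, which together account for 9 of the 33 libraries of the series. All 3 are mini-colon AKP lines, that is, mouse colon organoid lines set up from cancer cells taken out of mini-colons. A mini-colon is a colon epithelium grown on a scaffold with crypt-shaped cavities. The AKP genotype includes floxed alleles of *Apc* and *Trp53* (*Apc* fl/fl, *Trp53* fl/fl). The mini-colon and organoid AKP lines are described as recombined with OptoCre, a Cre recombinase switched on by light, which was not tested here. The libraries measure polyadenylated RNA from organoid cultures labelled as colon, and no age is given for the mice. For work on growth-factor dependence, the study's methods describe starving the organoids in a basal medium without growth factors before RNA isolation. The levels below are thus not those of ordinary culture medium. Control organoids of the same code letter carry these alleles without recombination, and organoid AKP is the line treated in ordinary organoid culture. The labels number the lines without giving their site of origin. The study's own description names #iii as coming from mini-colons rich in crypt tumours, and #i and #ii as coming from mini-colons rich in lumen tumours. Each line has 3 libraries, chosen by their sample titles, and all 9 carry the code letter E in their file names. Since only 1 crypt line carries this letter, an effect of crypt origin and a property of line #iii alone cannot be told apart. The study's methods speak of independent sample sets for bulk RNA, without saying what was independent, and the labels do not tie libraries to cultures. P-values measure the spread between the libraries of each line, which may be technical in part, and not that between lines of the same origin.

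The colonic crypt houses the stem cells, which are held there by WNT signals from their surroundings, whereas cells move towards the lumen as they mature and are shed. Loss of *Apc* keeps the WNT pathway on, and p53, encoded by *Trp53*, is a transcription factor that halts the cycle or kills the cell under stress or oncogene activity. The *Cdkn2a* locus encodes a pair of brakes, p16INK4A, which blocks cyclin-dependent kinases, and p19ARF, which protects p53 from its ubiquitin ligase MDM2.

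The libraries held 2968945 to 5728826 counts in #iii, 2829223 to 3381637 in #i and 3340775 to 5885703 in #ii. QuantSeq reads the 3′ end of polyadenylated transcripts, and levels are given as CPM (counts scaled to a common library size by TMM). Means of CPM are given ± SD over the 3 libraries of a line, and log2 differences ± their standard error. A difference in log2 units with no other reference named is that of #iii from the lumen mean. An unnamed identifier, ENSMUSG00000098178, took 6.33, 8.94 and 7.02% of the counts in #iii, 3.89, 2.54 and 2.73% in #i and 2.7, 4.15 and 1.70% in #ii. Its part in the results was not tested, though without identifiers that lack a symbol 1397 genes were higher and 1258 lower in #iii than in the lumen lines, close to the counts below. All 9 epithelial markers were tested, and their summed level was 3076 to 3316 CPM in #iii, 3414 to 3418 in #i and 3358 to 3479 in #ii. Of 12 fibroblast and muscle markers 1 passed the filter on low counts and 6, *Pdgfrb*, *Dcn* and *Col3a1* among them, were at 0 in all 9 libraries. The 3 immune markers that passed, of 12, summed to 8.05 to 8.57 CPM in #iii, 10.2 to 12.3 in #i and 12.6 to 17.7 in #ii, with *Cd3d*, *Cd79a* and *Adgre1* among 6 at 0. Of 8 endothelial markers 2 passed, none of those was called, and 4 were at 0.

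Tags of *Trp53*, a gene floxed in the AKP genotype, were more frequent in #iii, with 10.5, 11.7 and 7.37 CPM in the #iii libraries, 3.22, 3.21 and 3.06 in #i and 2.01, 2.37 and 2.30 in #ii (log2 difference 1.92 ± 0.24, adjusted p = 5.73e-09). The mean was 16.5 CPM in control organoids and 2.15 in organoid AKP of letter E. The floxed exons of *Trp53* lie upstream of the last exon, so 3′ tags do not show whether the alleles of a line were recombined, and the counts per gene cannot test the AKP label of #iii. *Apc* tags, which were not used as a test of recombination either, differed by 0.29 log2 units (adjusted p = 0.00715).

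The 3 lines separated from one another, and the lumen lines did not form 1 group. On the first principal component, which held 34.5% of the variance of log2 CPM, #iii lay between -33.9 and -30.7, #i between -6.40 and -1.81 and #ii between 32.7 and 39.7. The second component (17.6%) set #i, at 25.7 to 30.7, apart from #iii and #ii, both of which were below 0. The root mean square log2 difference between libraries averaged 0.598 for #iii with #i (0.570 to 0.635 over 9 pairs), 0.698 for #iii with #ii (0.669 to 0.752) and 0.619 for #i with #ii (0.599 to 0.661), against 0.479 to 0.491 on average within a line. By this measure every library of #iii was nearer to every library of #i than to any of #ii.

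**Figure D1:**
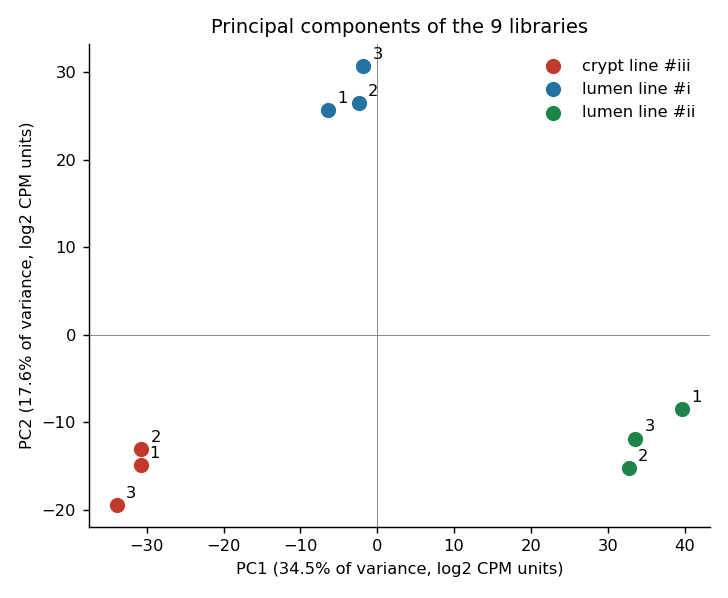
Principal components 1 and 2 of log2 CPM over the 9 libraries, in log2 units, with replicate numbers beside the points and 1 colour per line. The 3 libraries of each line lie together, #iii (-33.9 to -30.7) and #ii (32.7 to 39.7) sit at opposite ends of the first component, and #i lies apart on the second.

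Of 13606 genes tested, 1459 (10.7%) were higher and 1228 (9.03%) lower in #iii than in the mean of the lumen lines, each lumen line having equal weight (edgeR quasi-likelihood test, Benjamini-Hochberg adjusted p below 0.05). Most were small, with a median size of 0.48 on the log2 scale, and 234 of the higher and 282 of the lower genes reached a log2 fold change of 1. Without #iii replicate 2, the most deeply sequenced library of the line, the counts were 970 and 818. The 3 libraries of #iii lay above all 6 lumen libraries for 961 genes (7.06%) and below all 6 for 832 (6.11%). Of the 2687 called genes, 847 (31.5%) also differed between the lumen lines themselves, as did 1967 (14.5%) of all genes. Line by line, 1313 genes (9.65%) differed between #iii and #i and 3432 (25.2%) between #iii and #ii. A stricter rule, which asks that #iii be past the threshold on the same side of each lumen line (the larger of both p-values, adjusted), left 294 genes (2.16%) higher and 313 (2.3%) lower. Under that rule the higher count was 188 without #i replicate 2, 188 without #i replicate 3 and 193 without #iii replicate 2, and the lower count was 204 without #iii replicate 2.

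Chromosomes 16 and 19 held many of the lower calls, and there it was lumen line #ii that stood apart. On chromosome 19, 109 of 475 genes (22.9%) were lower and 13 higher in #iii than in the lumen mean. On chromosome 16, 105 of 428 (24.5%) were lower and 16 higher. The median log2 fold change of the chromosome 19 genes was -0.44 for #iii against #ii and 0.00 for #iii against #i, and 0.44 for #ii against #i. For chromosome 16 the medians were -0.37, 0.03 and 0.41. Between the lumen lines 210 chromosome 19 genes and 167 chromosome 16 genes were higher in #ii, and 4 and 6 lower. All 3 #ii libraries showed it. Relative to the 9-library mean of each gene, chromosome 19 genes had a median of 0.29 to 0.31 in the #ii libraries, -0.16 to -0.14 in #i and -0.15 to -0.12 in #iii, and chromosome 16 genes of 0.24 to 0.27, -0.14 to -0.11 and -0.12 to -0.09. Off these chromosomes, 1430 of 12703 genes were higher and 1014 lower in #iii. These chromosomes were singled out after their values were seen, and nothing here was tested at the level of whole chromosomes.

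**Figure D2:**
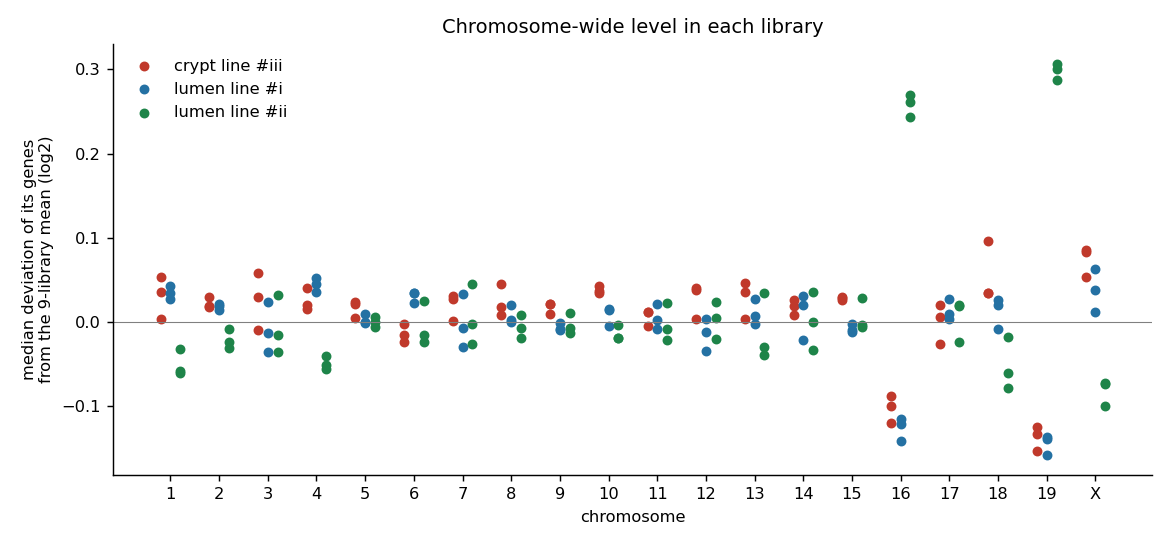
For chromosomes with at least 100 genes averaging 10 CPM or more over the 9 libraries, the median over genes of log2(CPM + 1) minus the mean of the gene over the 9 libraries, with 1 point per library and 1 colour per line. The #ii libraries stand at 0.29 to 0.31 for chromosome 19 and 0.24 to 0.27 for chromosome 16, while #i and #iii lie below 0 there.

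The genes with the largest differences in favour of #iii (at least 5 CPM in #iii, no overlap with the lumen libraries) fell into a set low in both lumen lines and a smaller set near 0 only in #ii. *Ano3* (chr2:110485546-110781268, GRCm39), a member of the anoctamin family of membrane proteins, had 6.36, 7.68 and 8.42 CPM in the #iii libraries and no count in any lumen library. With a floor of 3 counts over the 6 lumen libraries it was at least 57.6-fold higher in #iii, and it averaged 58.2 CPM in the control organoids of letter E and 0 in organoid AKP. *Eda2r* (chrX:96320270-96420847), encoding a receptor of the tumour necrosis factor family, had 19.6, 19.9 and 14 CPM in the #iii libraries, 0.585, 0.292 and 0.340 in #i and 0.575, 0.789 and 0.164 in #ii (log2 difference 5.32 ± 0.30, adjusted p = 2.87e-21). Its #iii levels were far above every lumen library and below the control mean of 30.4 CPM. *Dglucy*, encoding a D-glutamate cyclase of mitochondria, had 15.8, 19.2 and 24.6 CPM in the #iii libraries, 0, 2.04 and 0.340 in #i and 0.575, 1.05 and 0.492 in #ii (log2 difference 4.67 ± 0.30, adjusted p = 3.19e-19). Control organoids held 53.2 CPM and organoid AKP 0.402. *Mgmt*, encoding the methyltransferase that repairs O6-methylguanine in DNA, was at 9.88 ± 3.30 CPM in #iii, 1.54 ± 0.139 in #i and 0.490 ± 0.187 in #ii, 3.36 log2 units (adjusted p = 1.19e-11).

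*Ephx1*, the microsomal epoxide hydrolase, was at 59.5 ± 6.76 CPM in #iii, 8.64 ± 4.36 in #i and 10.6 ± 1.06 in #ii. *Ddit4l*, an inhibitor of mTOR signalling, was at 8.85 ± 2.16 CPM in #iii, 0.503 ± 0.141 in #i and 1.20 ± 0.0958 in #ii. *Pde3b*, a phosphodiesterase of cyclic nucleotides, was at 12.4 ± 2.34 CPM in #iii, 1.22 ± 0.749 in #i and 0.615 ± 0.536 in #ii. Their differences were 2.64 log2 units (adjusted p = 6.75e-21), 3.45 log2 units (adjusted p = 5.18e-13) and 3.70 log2 units (adjusted p = 3.28e-12). Control organoids were at 270.1, 33.1 and 1.75 CPM. *Snrpn*, an imprinted gene that shares its transcript with *Snurf* so that their tags may not be told apart, had 6.91, 8.23 and 9.47 CPM in the #iii libraries, 1.17, 0 and 0.340 in #i and 0.862, 0.263 and 0.820 in #ii (log2 difference 3.73 ± 0.34, adjusted p = 3.05e-13).

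*Elavl2* and *Khdc1a* had a different pattern, being near 0 in #ii and expressed in #i. *Elavl2*, encoding an RNA-binding protein best known from neurons, had 75.2, 81.6 and 81 CPM in the #iii libraries, 41.5, 42.6 and 56.5 in #i and 0, 1.05 and 0.328 in #ii. Against #i alone its difference was 0.76 log2 units (adjusted p = 3.07e-05) and against #ii 7.38 log2 units (adjusted p = 4.59e-31). *Khdc1a*, one of several near-identical gene copies whose tags are uncertain, had 53.3, 56.7 and 51.6 CPM in the #iii libraries, 29.5, 32.1 and 33.7 in #i and 0.862, 0.263 and 1.15 in #ii. *Syt14*, of the synaptotagmin family, had 6.08, 7.86 and 5.61 CPM in #iii and 1.75, 0.876 and 1.36 in #i, with no count in #ii, so that its difference is given against #i only, 2.30 log2 units (adjusted p = 0.000107). The log2 difference between the lumen lines, -6.62 for *Elavl2* and -5.23 for *Khdc1a*, was thus larger than that between #iii and #i.

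Among the genes lower in #iii, the largest difference was in *Col8a1* (chr16:57444621-57575100), a short-chain collagen, with 1.93, 1.83 and 0.702 CPM in the #iii libraries, 44.7, 43.5 and 35.7 in #i and 134, 117 and 119 in #ii (log2 difference -5.47 ± 0.22, adjusted p = 1.1e-28). *Krt90* (chr15:101460791-101471385), a keratin, had 4.70, 4.57 and 7.02 CPM in the #iii libraries, 132, 133 and 130.4 in #i and 346, 368 and 439.8 in #ii (log2 difference -5.42 ± 0.19, adjusted p = 1.07e-24). Every #iii library was far below every lumen library, though the rule for naming these genes already required no overlap. Both genes were higher in #ii than in #i, by 1.57 and 1.55 on the log2 scale (adjusted p = 6.31e-14 and 3.77e-12). *Col8a1* lies on chromosome 16, yet its difference is also seen against #i, at -4.68. Organoid AKP of letter E had 5.57 CPM of *Col8a1* and 21.1 of *Krt90*, and thus lay nearer to #iii than to the lumen lines.

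*Lypd2*, encoding a membrane-anchored protein of the LY6 family, was at 0.927 ± 0.436 CPM in #iii, 16.2 ± 3.24 in #i and 22.5 ± 3.20 in #ii. *Itgb7*, the beta subunit of an integrin that homes lymphocytes to the gut, was at 2.18 ± 0.997 CPM in #iii, 19.6 ± 3.09 in #i and 20.4 ± 2.83 in #ii. *Padi4*, a peptidylarginine deiminase, was at 1.31 ± 0.924 CPM in #iii, 14.1 ± 2.46 in #i and 12.5 ± 1.45 in #ii. *Tspan32*, a tetraspanin, was at 1.04 ± 0.631 CPM in #iii, 6.60 ± 0.914 in #i and 13.6 ± 2.67 in #ii. Their differences were -4.47 log2 units (adjusted p = 8.44e-18), -3.23 log2 units (adjusted p = 7.1e-15), -3.14 log2 units (adjusted p = 3.46e-12) and -3.32 log2 units (adjusted p = 4.72e-11). Organoid AKP held 36.5, 15.5, 18.4 and 25.7 CPM of them. In the mean of crypt lines #iv and #v they were lower too, relative to organoid AKP of letter F, with log2 differences of -2.96, -3.68, -3.02 and -3.60 (adjusted p = 7.83e-21, 7.44e-19, 4.52e-19 and 3.39e-20).

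Transcription regulators were also among them. *Tbx1*, a T-box factor of pharyngeal development that lies on chromosome 16, had 3.59, 3.47 and 2.46 CPM in the #iii libraries, 21.3, 13.7 and 18 in #i and 76.4, 73.1 and 85.8 in #ii (log2 difference -3.51 ± 0.20, adjusted p = 5.36e-22). *Prdm16*, a zinc-finger regulator of stem cells and brown fat, had 1.93, 1.46 and 0.702 CPM in the #iii libraries, 9.94, 10.5 and 8.51 in #i and 18.1, 15.2 and 15.2 in #ii (log2 difference -3.11 ± 0.33, adjusted p = 6.19e-11). The levels of #iii lay below all lumen libraries for both, which the rule for naming them required. *Arhgap8*, a GTPase-activating protein, was at 0.570 ± 0.255 CPM in #iii, 2.92 ± 1.01 in #i and 9.55 ± 2.67 in #ii. *Palmd*, encoding palmdelphin, held 2 counts in #iii against 126 in the lumen lines, a depth-scaled ratio of 32.5 with an exact 95% counting interval of 8.80 to 271.

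**Figure D3:**
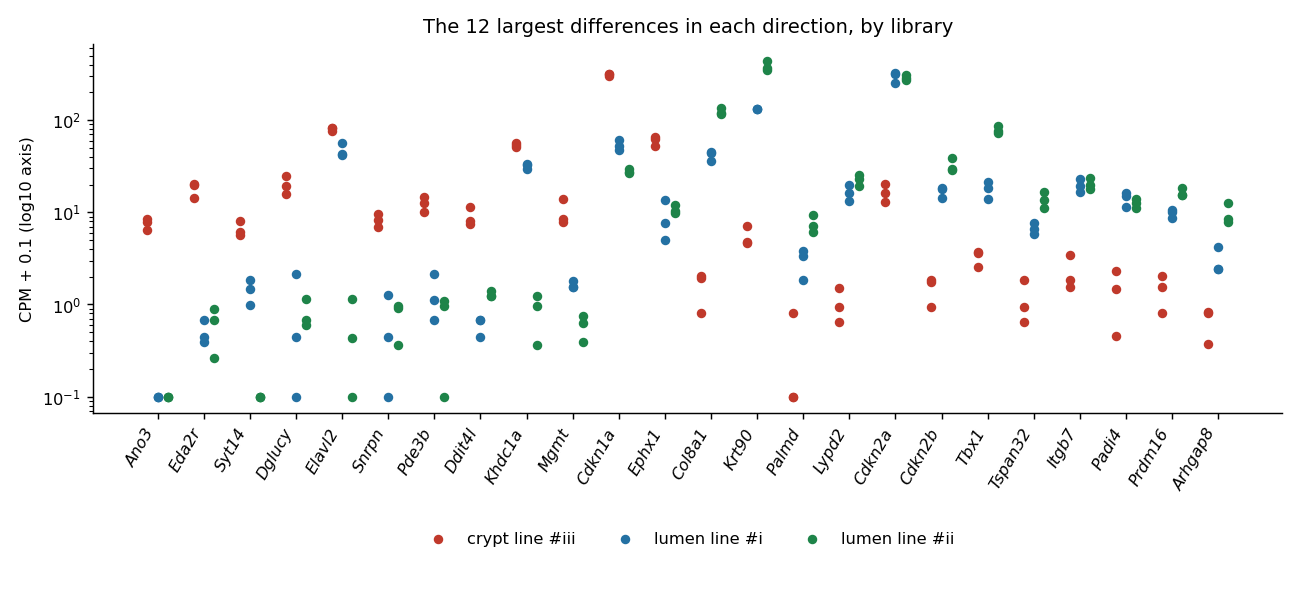
CPM + 0.1 on a log10 axis for the 12 genes with the largest difference in each direction, ordered by log2 fold change, with 1 point per library and 1 colour per line. *Elavl2* and *Khdc1a* are near 0 only in #ii, while *Cdkn2a* is at 13, 20.1 and 16.1 CPM in #iii and above 250 CPM in each lumen library.

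Most target genes of p53 on the list were higher in line #iii. Of the 24 genes of this list, in which *Trp53* itself is counted, 18 were higher in #iii than in the lumen mean and 0 lower, 12 were higher than each lumen line, and for 17 the 3 #iii libraries lay above all 6 lumen libraries. Over all genes 10.7% were called higher, 2.16% were higher than each lumen line and 7.06% lay above all 6 lumen libraries. The median log2 fold change of the list was 0.81, that of all genes 0.02. Leaving out single libraries gave 16 to 18 genes higher and 0 lower, and a fit that pooled the letter E and letter F libraries of the control, organoid AKP and in vivo AKP groups gave 13 higher. Between the lumen lines 3 members differed, as did 14.5% of all genes. The median was 0.75 against #i and 0.81 against #ii. Line by line, 15 members were higher and 1 lower against #i, and 16 higher and 0 lower against #ii. Of all 13606 genes 669 were higher and 644 lower against #i, and 1762 and 1670 against #ii.

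*Cdkn1a* (chr17:29309936-29319701), encoding the cyclin-dependent kinase inhibitor p21, had 319, 313 and 302 CPM in the #iii libraries, 61.1, 52.8 and 47.3 in #i and 27.3, 26.6 and 29.5 in #ii (log2 difference 3.0 ± 0.12, adjusted p = 5.77e-17). *Ccng1*, encoding cyclin G1, had 126, 115 and 105 CPM in the #iii libraries, 20.5, 32.1 and 29.6 in #i and 31.3, 33.9 and 30.8 in #ii (log2 difference 1.96 ± 0.10, adjusted p = 2.86e-24). *Zmat3*, a zinc-finger RNA-binding protein, had 59.1, 61.1 and 52.6 CPM in the #iii libraries, 19.3, 18.7 and 17.7 in #i and 12.6, 16.8 and 17.2 in #ii (log2 difference 1.76 ± 0.11, adjusted p = 1.24e-19). In all 3 the groups were far apart. *Trp53inp1*, *Bbc3* (the death effector PUMA), *Phlda3*, *Btg2*, *Bax* and *Mdm2* differed by 2.17 log2 units (adjusted p = 1.42e-13), 1.12 log2 units (adjusted p = 4.35e-09), 1.58 log2 units (adjusted p = 2.21e-08), 1.07 log2 units (adjusted p = 7.58e-06), 0.84 log2 units (adjusted p = 0.000381) and 0.76 log2 units (adjusted p = 2.87e-08). *Perp*, *Plk2*, *Pmaip1*, *Rrm2b*, *Sesn1* and *Gtse1* did not pass, with log2 differences between -0.47 for *Sesn1* and 0.62 for *Gtse1*.

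Most p53 targets of #iii had levels between those of the lumen lines and control. In 15 of 24 members the #iii mean was above both lumen means and below the control mean of letter E, as for *Cdkn1a* (2305 CPM in control), *Ccng1* (290.0), *Zmat3* (115) and *Trp53inp1* (104). Over the 18 called members the median level was 59.2% of control in #iii, 23.5% in #i, 21.6% in #ii and 20.2% in organoid AKP. These 18 were picked as higher in #iii, so a larger share there than in the lumen lines was given by that choice. In bulk RNA, fewer cells of a type and less RNA per cell cannot be told apart, so these levels may stand for all cells or for a share of them. A wider set held 113 genes, those with at least 50 CPM in control and at least 20-fold less in organoid AKP. It stood at a median of 0.788% of control in #iii, 0.685% in #i and 0.780% in #ii. Of the 113 genes 18 were higher and 6 lower in #iii than in the lumen mean, beside 10.7% and 9.03% of all genes. *Btg2* was at 222 CPM in control and 13.3 in #iii. That set was chosen after the data were seen, and its values are a description.

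**Figure D4:**
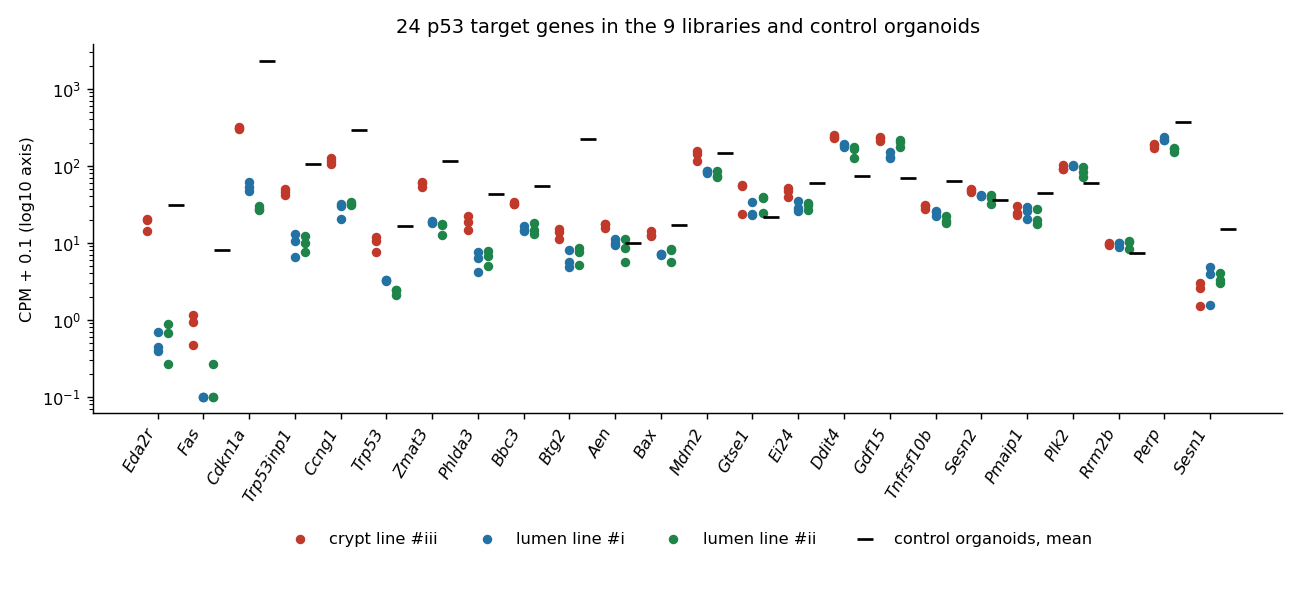
CPM + 0.1 on a log10 axis for the 24 genes of the p53 list, ordered by log2 fold change, with 1 point per library of #iii, #i and #ii and a dash for the mean of the 3 control libraries of letter E. From *Eda2r* to *Mdm2* the #iii points lie above the lumen points, and in 15 genes the #iii mean is above both lumen means and below the control dash.

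The promoter windows of 4 list members that were higher in #iii are shown with the p53 half-site in capitals. The 4 were chosen after their values were seen. The half-site is a motif of 10 letters that reads alike on both strands, and it was sought without mismatch from 250 bases before to 50 after each RefSeq start site (build GRCm38.p6, reading towards the gene). Of 18 list members with a window 9 held one, as did 9.55% of all 27025 symbols. The list was made of genes known as p53 targets, so its larger share is no evidence about line #iii. A match is a description and no test of binding, and sites farther away were not searched. *Cdkn1a* (chr17:29090729-29091028, plus strand) held 2 half-sites, and *Ccng1* (chr11:40755237-40755536), *Mdm2* (chr10:117710709-117711008) and *Bax* (chr7:45466849-45467148), all on the minus strand, held 1 each.
Cdkn1a: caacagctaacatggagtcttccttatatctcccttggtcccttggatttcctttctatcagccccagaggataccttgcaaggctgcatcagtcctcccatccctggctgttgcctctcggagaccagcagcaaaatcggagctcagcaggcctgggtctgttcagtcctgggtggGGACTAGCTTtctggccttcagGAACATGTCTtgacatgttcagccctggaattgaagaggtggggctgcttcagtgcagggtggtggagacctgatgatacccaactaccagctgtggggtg
Ccng1: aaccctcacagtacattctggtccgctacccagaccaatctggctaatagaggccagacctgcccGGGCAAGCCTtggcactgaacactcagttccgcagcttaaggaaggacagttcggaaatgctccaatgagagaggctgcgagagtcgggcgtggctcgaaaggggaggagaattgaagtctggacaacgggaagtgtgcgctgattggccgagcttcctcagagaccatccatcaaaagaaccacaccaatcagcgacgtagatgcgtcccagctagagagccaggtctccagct
Mdm2: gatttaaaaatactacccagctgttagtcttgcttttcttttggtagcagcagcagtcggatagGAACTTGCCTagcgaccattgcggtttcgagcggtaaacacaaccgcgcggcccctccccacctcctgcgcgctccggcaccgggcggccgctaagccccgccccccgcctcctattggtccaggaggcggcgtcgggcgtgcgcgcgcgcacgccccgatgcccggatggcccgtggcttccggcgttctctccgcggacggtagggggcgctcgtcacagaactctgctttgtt
Bax: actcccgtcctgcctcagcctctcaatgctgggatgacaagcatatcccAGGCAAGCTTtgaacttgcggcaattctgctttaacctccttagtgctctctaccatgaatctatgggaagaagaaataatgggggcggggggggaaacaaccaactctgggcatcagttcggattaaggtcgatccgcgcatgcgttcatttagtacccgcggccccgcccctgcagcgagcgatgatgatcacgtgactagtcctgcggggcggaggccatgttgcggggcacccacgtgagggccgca

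The INK4 genes *Cdkn2a* and *Cdkn2b* moved the opposite way to *Cdkn1a*. *Cdkn2a* (chr4:89192708-89212890), whose p16INK4A and p19ARF transcripts share their 3′ end and are counted together, had 13, 20.1 and 16.1 CPM in the #iii libraries, 325, 317 and 254 in #i and 312, 286 and 272 in #ii (log2 difference -4.13 ± 0.11, adjusted p = 7.26e-39). The highest #iii library was more than 10 times below the lowest lumen library, and the lumen lines differed from each other by -0.05 (adjusted p = 0.797). *Cdkn2b* (chr4:89223204-89229276), its neighbour, encoding p15INK4B, had 0.829, 1.65 and 1.75 CPM in the #iii libraries, 18.1, 14 and 17.7 in #i and 38.8, 29.2 and 28.9 in #ii (log2 difference -3.99 ± 0.26, adjusted p = 3.75e-19). Control organoids held 129.7 CPM of *Cdkn2a* and 22.5 of *Cdkn2b*, and organoid AKP 227 and 16.9, so #iii lay below both for each gene. *Mtap* (chr4:89055359-89099319), next to *Cdkn2a* on the side away from *Cdkn2b* and chosen after its values were seen, was lower by far less. It averaged 177 CPM in #iii, 234 in #i and 256 in #ii, a difference of -0.47 log2 units (adjusted p = 2.33e-06). Farther away on the same side, *Klhl9* (-0.17 log2 units, adjusted p = 0.351) and *Focad* (-0.25 log2 units, adjusted p = 0.324) did not pass the test.

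For the lists that follow, counts without single libraries and with the letters pooled stand in brackets, and shares near those of all genes (10.7% higher, 9.03% lower) say nothing about a list. A drop is given there where leaving out a library lowered a count of 3 or more by over 1.5 times. Over all genes, 2.16% were higher and 2.3% lower than each lumen line, and 14.5% differed between the lumen lines. The list of cell cycle inhibitors as a whole had 4 of 12 tested members higher and 3 lower (3 to 4 higher and 2 to 3 lower without single libraries, and 3 and 3 with pooled letters). Cell cycle genes had 6 of 36 tested members higher and 4 lower (4 to 6 higher and 0 to 4 lower without single libraries, the drop in those lower coming without #iii replicate 2 or #iii replicate 3, and 3 and 0 with pooled letters), of which 0 were higher and 0 lower than each lumen line. *Mki67*, a marker of cycling cells, was at 378 ± 28.9 CPM in #iii, 332 ± 8.20 in #i and 211 ± 21.4 in #ii, which gave a difference of 0.52 log2 units (adjusted p = 0.00138) from the lumen mean. Against #ii alone it was 0.84 log2 units (adjusted p = 2.03e-05) and against #i 0.19 log2 units (adjusted p = 0.439). *Top2a*, a topoisomerase of dividing cells, and *Cenpe*, a kinesin of the kinetochore, had 0.40 and 0.48 against the lumen mean (adjusted p = 1.21e-05 and 3.2e-06).

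Receptor tyrosine kinase ligands had 6 of 41 tested members higher and 5 lower (5 to 6 higher and 1 to 5 lower without single libraries, the drop in those lower coming without 6 of the 9 and lowest without #iii replicate 1, and 3 and 0 with pooled letters), of which 3 were higher and 0 lower than each lumen line. *Ereg*, encoding epiregulin, had 77.1, 79.5 and 90.1 CPM in the #iii libraries, 52.9, 57.5 and 51.7 in #i and 35.3, 31.5 and 27.4 in #ii (log2 difference 1.0 ± 0.11, adjusted p = 8.39e-11). *Btc*, encoding betacellulin, had 61.3, 62.9 and 67.7 CPM in the #iii libraries, 44.7, 41.5 and 41.2 in #i and 32.5, 32.9 and 34.3 in #ii (log2 difference 0.76 ± 0.10, adjusted p = 1.35e-08). The #iii libraries were above all 6 lumen libraries for both. Of the other EGF-family ligands, named after their values were seen, *Areg* was higher (0.95 log2 units, adjusted p = 3.75e-05), *Epgn* was lower (-2.40 log2 units, adjusted p = 0.0184), and *Tgfa* (0.04 log2 units, adjusted p = 0.904), *Hbegf* (-0.08 log2 units, adjusted p = 0.608) and *Nrg1* (-2.25 log2 units, adjusted p = 0.102) did not pass. *Vegfa*, the vascular growth factor, differed by 0.57 log2 units (adjusted p = 2.29e-07) and was also higher than each lumen line. *Kitl*, the KIT ligand, differed by 0.50 log2 units (adjusted p = 1.64e-07) from the mean and by 0.19 log2 units (adjusted p = 0.132) from #i. Of the receptors, 5 of 32 were higher and 2 lower (3 to 5 higher and 1 to 3 lower without single libraries, the drop in those higher coming without #i replicate 2 or #iii replicate 2 or #iii replicate 3, and 1 and 1 with pooled letters). *Met*, the hepatocyte growth factor receptor, was at 92.5 ± 1.67 CPM in #iii, 135 ± 11 in #i and 131 ± 7.85 in #ii, -0.52 log2 units (adjusted p = 1.61e-06) and below every lumen library. *Ephb2*, a WNT-driven receptor of crypt cells, differed by 0.46 log2 units (adjusted p = 0.000565) and *Ror2*, a WNT5A receptor, 1.34 log2 units (adjusted p = 0.00073), with 0.22 and 0.19 against #i (adjusted p = 0.294 and 0.782). *Kit* had 5 counts in #iii and 0 in the lumen libraries, at least 3.23-fold higher with the 3-count floor over the lumen libraries. It lost its call under DESeq2 and limma-voom.

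MAPK output and AP-1 genes had 3 of 29 tested members higher and 1 lower (2 to 4 higher and 0 to 1 lower without single libraries, and 0 and 0 with pooled letters). The immediate early factor *Egr1* was at 395 ± 34.7 CPM in #iii, 286 ± 46.2 in #i and 244 ± 6.87 in #ii (log2 difference 0.58 ± 0.08, adjusted p = 4.95e-07). *Spry2*, a feedback inhibitor of receptor signalling, differed by 0.39 log2 units (adjusted p = 0.000923). *Egr2*, a related factor, differed by 1.08 log2 units (adjusted p = 0.0381). In the IGF list, 1 of 14 was higher and 2 lower (0 to 1 higher and 1 to 2 lower without single libraries, and 0 and 1 with pooled letters). *Igf2bp2*, which binds *Igf2* and other messenger RNAs, had 50.6, 55.8 and 56.1 CPM in the #iii libraries, 104, 109 and 110.0 in #i and 81.6, 89.9 and 90.3 in #ii (log2 difference -0.84 ± 0.08, adjusted p = 1.32e-11), with no overlap between #iii and the lumen lines. *Igfbp7*, a secreted IGF-binding protein, had 9.48, 8.41 and 13.6 CPM in #ii and at most 1 count per library in #i and #iii, so its difference rested on #ii. *Igf2r* differed by 0.50 log2 units (adjusted p = 0.04) and *Igf1r* -0.09 log2 units (adjusted p = 0.622).

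Of 20 tested WNT targets and feedback genes 0 were higher and 1, *Ephb3* on chromosome 16, was lower, by -0.39 log2 units (adjusted p = 0.0331) against the mean and -0.03 against #i, while 9 differed between the lumen lines. WNT ligands and receptors had 3 of 28 tested members higher and 3 lower (2 to 3 higher and 2 to 4 lower without single libraries, and 2 and 2 with pooled letters). *Lgr6*, an R-spondin receptor, had 3.87, 9.51 and 9.47 CPM in the #iii libraries, 31.6, 26 and 16.3 in #i and 28.4, 27.6 and 32.8 in #ii (log2 difference -1.81 ± 0.20, adjusted p = 1.73e-09). *Fzd8*, a frizzled receptor, was at 4.89 ± 2.12 CPM in #iii, 1.56 ± 0.445 in #i and 0.845 ± 0.311 in #ii (log2 difference 2.10 ± 0.35, adjusted p = 5.78e-06). Both differences also passed against each lumen line. Stem cell markers had 5 of 20 tested members higher and 3 lower (2 to 4 higher and 1 to 3 lower without single libraries, the drop in those higher coming without 4 of the 9 and lowest without #iii replicate 2, the drop in those lower coming without #i replicate 2 or #iii replicate 1, and 1 and 1 with pooled letters). Their median difference was 0.08 log2 units and turned to -0.07 without #iii replicate 2. *Slc12a2*, an ion cotransporter (0.46 log2 units, adjusted p = 2.21e-06), was the member higher than each lumen line, and *Tnfrsf19*, the receptor TROY, differed by -0.71 log2 units (adjusted p = 1.84e-08). *Lgr5*, the R-spondin receptor of crypt base stem cells, had 27.6, 39.5 and 26.7 CPM in the #iii libraries, 30.7, 36.8 and 40.9 in #i and 30.5, 26.8 and 34.9 in #ii, and the lines overlapped (log2 difference -0.06 ± 0.14, adjusted p = 0.818).

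The Notch pathway had 2 of 17 tested members higher and 1 lower (1 to 2 higher and 0 to 1 lower without single libraries, and 1 and 0 with pooled letters). *Jag1*, a Notch ligand, had 103, 112 and 97.9 CPM in the #iii libraries, 68.4, 66.3 and 58.9 in #i and 56.6, 46 and 38 in #ii (log2 difference 0.93 ± 0.09, adjusted p = 1.73e-12), all #iii values being above the lumen values. *Dtx4*, a Notch-modifying ubiquitin ligase, differed by 0.42 log2 units (adjusted p = 0.0213) and *Hes1*, a Notch target on chromosome 16, -0.31 log2 units (adjusted p = 0.0417). The TGFβ and BMP pathway had 4 of 38 tested members higher and 5 lower (3 to 4 higher and 1 to 5 lower without single libraries, the drop in those lower coming without 5 of the 9 and lowest without #iii replicate 3, and 1 and 1 with pooled letters), none of them against each lumen line. *Bmp7* was at 9.30 ± 1.38 CPM in #iii, 3.10 ± 1.69 in #i and 5.73 ± 1.89 in #ii (1.11 log2 units, adjusted p = 0.000116). *Bmp4* was at 5.38 ± 1.57 CPM in #iii, 8.79 ± 0.579 in #i and 14.5 ± 1.69 in #ii (-1.09 log2 units, adjusted p = 0.000459). *Gdf15*, a stress cytokine, differed by 0.46 log2 units (adjusted p = 6.44e-05).

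Of 40 matrix, integrin and metalloproteinase genes 5 were higher and 14 lower (3 to 5 higher and 11 to 14 lower without single libraries, the drop in those higher coming without #iii replicate 2, and 0 and 7 with pooled letters), with 8 lower than each lumen line (all genes: 2.3%). *Timp3*, a tissue inhibitor of metalloproteinases, had 109, 102 and 114 CPM in the #iii libraries, 364, 331 and 360.2 in #i and 615, 542 and 528 in #ii (log2 difference -2.04 ± 0.11, adjusted p = 3.05e-18). *Timp1*, of the same family, was at 11.7 ± 2.20 CPM in #iii, 26.4 ± 4.06 in #i and 29 ± 3.85 in #ii (log2 difference -1.27 ± 0.18, adjusted p = 1.37e-07). *Lamb1*, a laminin chain, was at 8.91 ± 0.533 CPM in #iii, 17.4 ± 6.72 in #i and 29.1 ± 6.54 in #ii (log2 difference -1.37 ± 0.20, adjusted p = 7.82e-07). *Plau*, the urokinase that activates plasminogen, and *Col4a2*, a basement membrane collagen, both named after their values were seen, differed by -1.72 log2 units (adjusted p = 1.65e-06) and -0.53 log2 units (adjusted p = 1.11e-05).

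In the list of fetal-like and regenerative genes, which marks repair states of the intestine, 4 of 24 were higher and 11 lower (4 higher and 10 to 12 lower without single libraries, and 3 and 7 with pooled letters), and 2 were higher and 4 lower than each lumen line. *Basp1*, a membrane-bound signalling protein, had 111, 99.5 and 95.4 CPM in the #iii libraries, 179, 179.8 and 174 in #i and 277, 237 and 258 in #ii (log2 difference -1.06 ± 0.08, adjusted p = 4.46e-16). *Krt14*, a basal keratin, had 70.7, 54.3 and 73 CPM in the #iii libraries, 202, 157 and 187 in #i and 136, 129 and 147 in #ii (log2 difference -1.28 ± 0.11, adjusted p = 4.76e-12). Their #iii values were below every lumen value. *Ly6d*, a LY6 surface protein, went the other way with 324, 335 and 329 CPM in the #iii libraries, 284, 263 and 243 in #i and 98.3, 117 and 111 in #ii (log2 difference 0.96 ± 0.07, adjusted p = 8.44e-18). Hippo-YAP targets had 0 of 21 tested members higher and 5 lower (0 to 1 higher and 2 to 5 lower without single libraries, the drop in those lower coming without 7 of the 9 and lowest without #i replicate 3, and 0 and 1 with pooled letters). *Amotl1*, a YAP regulator, was the member lower than each lumen line (-0.65 log2 units, adjusted p = 6.59e-07), while *Ankrd1*, a YAP-responsive gene on chromosome 19, differed by -1.0 log2 units (adjusted p = 1.39e-06) against the mean and -0.25 against #i (adjusted p = 0.333). *Tgfb2* held 3 counts in #iii against 36, a ratio of 6.18 (exact 95% counting interval 1.95 to 31.4). Epithelial-mesenchymal transition genes had 1 of 21 tested members higher and 4 lower (0 to 1 higher and 2 to 4 lower without single libraries, the drop in those lower coming without #iii replicate 2, and 0 and 1 with pooled letters). Of these, *S100a4*, a calcium-binding protein, differed by -1.43 log2 units (adjusted p = 9.32e-06), and the epithelial adhesion genes *Epcam* and *Cdh1* differed by -0.45 log2 units (adjusted p = 3.01e-06) and 0.23 log2 units (adjusted p = 0.0108).

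**Figure D5:**
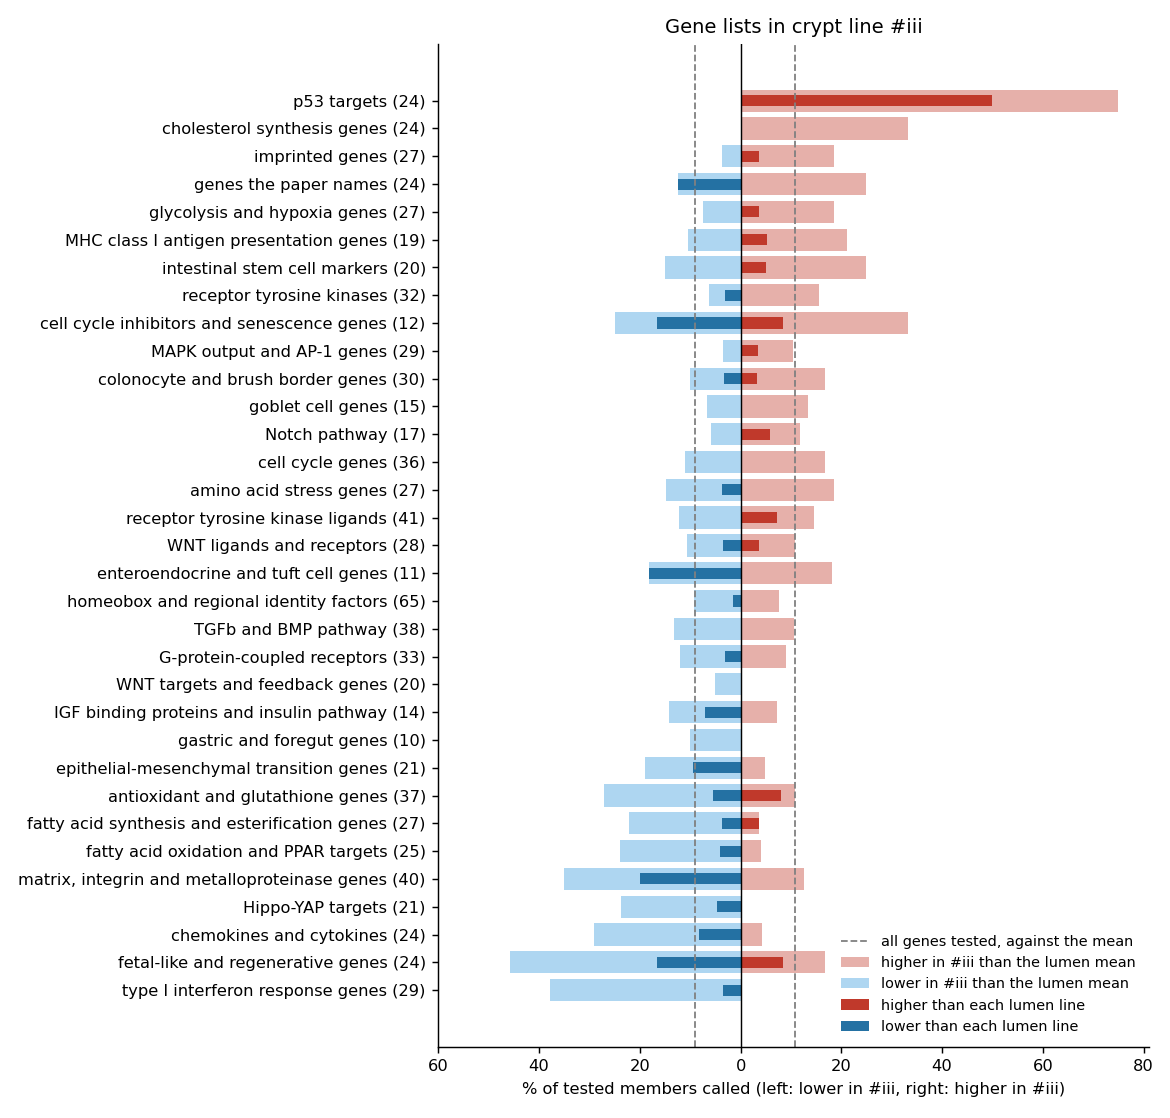
Share of the tested members of each gene list (number in brackets, lists with at least 10) that were higher (right) or lower (left) in #iii than the lumen mean, in light bars, and than each lumen line, in dark bars, with dashed lines at the shares of all genes (10.7% higher, 9.03% lower). The p53 list has 18 of 24 members higher, and the interferon list has 11 of 29 lower against the mean but 1 against each line (all genes: 2.3%).

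Of 29 tested interferon response genes 11 were lower and 0 higher (0 higher and 6 to 12 lower without single libraries, the drop in those lower coming without #iii replicate 1 or #iii replicate 2, and 0 and 5 with pooled letters), against 9.03% and 10.7% of all genes. Line by line, 14 were lower and 2 higher against #ii, and 1 was lower and 0 higher against #i. Of all 13606 genes 1670 were lower and 1762 higher against #ii, and 644 and 669 against #i. *Isg20*, an interferon-induced exonuclease, was the one lower than each, with 29, 18.8 and 26 CPM in the #iii libraries, 66.4, 70.7 and 60.9 in #i and 44, 39.2 and 52 in #ii (log2 difference -1.19 ± 0.16, adjusted p = 1.11e-06). *Isg15*, a ubiquitin-like modifier, differed by -1.05 log2 units (adjusted p = 1.91e-05) against the mean and -0.47 against #i (adjusted p = 0.203), and *Rtp4*, on chromosome 16, -1.74 log2 units (adjusted p = 0.000966). Chemokines and cytokines had 1 of 24 tested members higher and 7 lower (0 to 1 higher and 3 to 7 lower without single libraries, the drop in those lower coming without 4 of the 9 and lowest without #iii replicate 2, and 0 and 3 with pooled letters). The alarmin *Il33*, on chromosome 19, was at 12.8 ± 1.88 CPM in #iii, 23.3 ± 3.33 in #i and 26 ± 1.36 in #ii (-0.97 log2 units, adjusted p = 4.47e-05). The protease inhibitor *Slpi* was at 13.2 ± 1.68 CPM in #iii, 22 ± 3.92 in #i and 30.5 ± 3.10 in #ii (-0.98 log2 units, adjusted p = 2.64e-05). The chemokine *Ccl25* was the one member that was higher, by 0.77 log2 units (adjusted p = 0.0059). MHC class I genes had 4 of 19 tested members higher and 2 lower (2 to 4 higher and 2 to 3 lower without single libraries, the drop in those higher coming without #iii replicate 2, and 1 and 1 with pooled letters). *B2m*, the shared light chain, differed by -0.44 log2 units (adjusted p = 0.000449) and the immunoproteasome subunit *Psmb10* by -0.58 log2 units (adjusted p = 0.00112), and *H2-Q7*, whose tags are uncertain among near-identical class I genes, by 1.13 log2 units (adjusted p = 1.13e-05).

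Cholesterol synthesis genes had 8 of 24 tested members higher and 0 lower (3 to 6 higher and 0 to 1 lower without single libraries, the drop in those higher coming without 7 of the 9 and lowest without #iii replicate 1 or #iii replicate 2, and 0 and 0 with pooled letters). Against #ii 9 were higher and 0 lower, and against #i 0 were higher and 2 lower. Of all 13606 genes 1762 were higher and 1670 lower against #ii, and 669 and 644 against #i. *Hmgcs1*, an early enzyme of the pathway, was at 413 ± 10.02 CPM in #iii, 415 ± 16 in #i and 291 ± 20.1 in #ii. *Sqle*, squalene epoxidase, differed by 0.32 log2 units (adjusted p = 0.00359). Fatty acid synthesis genes had 1 of 27 tested members higher and 6 lower (1 higher and 3 to 6 lower without single libraries, the drop in those lower coming without #ii replicate 3 or #iii replicate 2, and 0 and 0 with pooled letters). The desaturase *Scd2* was at 349 ± 34.6 CPM in #iii, 471 ± 3.34 in #i and 460.4 ± 46.1 in #ii (-0.41 log2 units, adjusted p = 6.12e-05). The acyl-CoA synthetases *Acsl3* and *Acsl5*, the latter on chromosome 19, differed by 0.49 log2 units (adjusted p = 1.02e-06) and -0.47 log2 units (adjusted p = 3.34e-06). Fatty acid oxidation genes had 1 of 25 tested members higher and 6 lower (0 to 1 higher and 2 to 6 lower without single libraries, the drop in those lower coming without #iii replicate 2, and 0 and 1 with pooled letters). The nuclear receptor *Ppard* was at 36 ± 2.12 CPM in #iii, 54.7 ± 2.81 in #i and 65.7 ± 3.21 in #ii (log2 difference -0.73 ± 0.10, adjusted p = 1.71e-07). The mitochondrial enzymes *Acadl* and *Acot2* differed by -0.27 log2 units (adjusted p = 0.00722) and -0.45 log2 units (adjusted p = 0.00664).

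Antioxidant and glutathione genes had 4 of 37 tested members higher and 10 lower (3 to 5 higher and 4 to 12 lower without single libraries, the drop in those lower coming without #iii replicate 2, and 2 and 3 with pooled letters), while 21 of them differed between the lumen lines. *Prdx1*, a peroxiredoxin, was at 992 ± 46.1 CPM in #iii, 713 ± 8.81 in #i and 682 ± 40.6 in #ii (log2 difference 0.51 ± 0.07, adjusted p = 1.1e-07). *Gsta4*, a glutathione transferase, differed by -0.85 log2 units (adjusted p = 1.35e-07) and *Akr1c13*, of a family of near-identical aldo-keto reductases, by 1.36 log2 units (adjusted p = 3.05e-09). *Gpx2*, an epithelial glutathione peroxidase, lay between the lumen lines, with 271, 257 and 267 CPM in the #iii libraries, 197, 206 and 211 in #i and 307, 326 and 352 in #ii. Glycolysis and hypoxia genes had 5 of 27 tested members higher and 2 lower (1 to 6 higher and 1 to 4 lower without single libraries, the drop in those higher coming without 7 of the 9 and lowest without #iii replicate 2, and 0 and 0 with pooled letters). Lactate dehydrogenase *Ldha* differed by -0.33 log2 units (adjusted p = 0.00327) and the oxygen sensor *Egln3* by 0.73 log2 units (adjusted p = 0.0187). Amino acid stress genes had 5 of 27 tested members higher and 4 lower (3 to 5 higher and 3 to 5 lower without single libraries, the drop in those higher coming without #iii replicate 1, and 0 and 0 with pooled letters). *Asns*, asparagine synthetase, differed by -0.38 log2 units (adjusted p = 0.000151), and *Ddit4*, an mTOR inhibitor, by 0.50 log2 units (adjusted p = 0.000351). Of 9 mitochondrially encoded genes 3 were higher, *mt-Nd2* (0.59 log2 units, adjusted p = 0.0177), *mt-Nd5* (0.51 log2 units, adjusted p = 0.00873) and *mt-Co1* (0.52 log2 units, adjusted p = 0.039), and their libraries overlapped with those of #i. Their number was 0 to 3 without single libraries.

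Differentiation genes moved in both directions. Colonocyte and brush border genes had 5 of 30 tested members higher and 3 lower (2 to 5 higher and 2 to 3 lower without single libraries, the drop in those higher coming without 5 of the 9 and lowest without #i replicate 3 or #iii replicate 1 or #iii replicate 3, and 0 and 1 with pooled letters). *Car2*, carbonic anhydrase, had 209, 230.4 and 204 CPM in the #iii libraries, 172, 146 and 183 in #i and 105, 97.8 and 81.7 in #ii (log2 difference 0.78 ± 0.09, adjusted p = 6.02e-09). *Sult1a1*, a sulfotransferase, had no count in #iii and 53 in the lumen lines, at least 9.11-fold lower with a floor of 3 counts over the #iii libraries. *Emp1*, a membrane protein, differed by -0.39 log2 units (adjusted p = 0.000303) and *Vil1*, the brush border protein villin, 0.31 log2 units (adjusted p = 0.00248). Goblet cell genes had 2 of 15 tested members higher and 1 lower (1 to 3 higher and 0 to 1 lower without single libraries, and 0 and 0 with pooled letters). The glycosyltransferase *Galnt12* differed by 0.56 log2 units (adjusted p = 0.00254), the transcription factor *Creb3l1* by 0.90 log2 units (adjusted p = 0.0232), and the chemokine *Ccl6* had 0 counts in #iii against 12 in the lumen lines. Enteroendocrine and tuft cell genes had 2 of 11 tested members higher and 2 lower (0 to 2 higher and 2 lower without single libraries, and 0 and 1 with pooled letters). *Avil*, the tuft cell protein advillin, had 62.2, 49.7 and 70.9 CPM in the #iii libraries, 146, 151 and 135 in #i and 164, 216 and 262 in #ii (log2 difference -1.55 ± 0.15, adjusted p = 2.93e-08). *Ptgs1*, a cyclooxygenase, was also lower than each lumen line (-0.75 log2 units, adjusted p = 6.66e-10). *Tac1*, a neuropeptide precursor, differed by 1.23 log2 units (adjusted p = 0.0366). Gastric and foregut genes had 0 of 10 tested members higher and 1 lower (0 to 1 higher and 0 to 1 lower without single libraries, and 0 and 0 with pooled letters), the latter being the mucin *Muc1* (-1.78 log2 units, adjusted p = 0.0361).

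Among 65 homeobox genes and other factors of regional identity 5 were higher and 6 lower (3 to 5 higher and 3 to 6 lower without single libraries, the drop in those higher coming without #iii replicate 2, the drop in those lower coming without #iii replicate 2, and 1 and 2 with pooled letters). *Irx3*, an Iroquois homeobox factor, had 52.2, 50.3 and 63.8 CPM in the #iii libraries, 182, 162 and 146 in #i and 5.17, 7.10 and 6.72 in #ii, so that #iii differed from #i by -1.58 and from #ii by 3.09 on the log2 scale (adjusted p = 1.79e-17 and 4.14e-24). *Hoxa10*, of the HOX clusters, differed by -0.53 log2 units (adjusted p = 9.51e-05). G-protein-coupled receptors had 3 of 33 tested members higher and 4 lower (1 to 3 higher and 4 lower without single libraries, the drop in those higher coming without #iii replicate 2, and 0 and 3 with pooled letters). The adhesion receptors *Adgrl2* and *Adgrv1* differed by -1.18 log2 units (adjusted p = 0.000324) and -2.76 log2 units (adjusted p = 0.000608), in both cases past the threshold against #ii and not against #i. Imprinted genes had 5 of 27 tested members higher and 1 lower (3 to 5 higher and 0 to 2 lower without single libraries, the drop in those higher coming without #ii replicate 1 or #iii replicate 2, and 3 and 0 with pooled letters). *Cdkn1c*, an inhibitor of cyclin-dependent kinases, was at 18.7 ± 2.98 CPM in #iii, 16.3 ± 4.78 in #i and 3.75 ± 2.03 in #ii (1.17 log2 units, adjusted p = 1.26e-05). *Peg3* was at 1.11, 0.914 and 1.40 CPM in #iii, 0.287, 0.526 and 0.820 in #ii and no count in #i. Of 6 sex-linked genes 4 were higher (3 to 5 higher and 0 lower without single libraries, and 2 and 0 with pooled letters). The Y-linked demethylase gene *Kdm5d* had 18.2, 18.7 and 18.2 CPM in the #iii libraries, 8.48, 8.47 and 9.19 in #i and 11.2, 11.3 and 10.7 in #ii. *Uty*, also Y-linked, had 14.1, 19.6 and 16.8 CPM in the #iii libraries, 6.73, 7.59 and 5.45 in #i and 9.48, 12.4 and 14.9 in #ii. The Y-linked helicase gene *Ddx3y* differed by 0.48 log2 units (adjusted p = 7.9e-05) against the mean and 0.05 against #ii (adjusted p = 0.792).

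Among 24 tested genes that the study itself discusses, 6 were higher and 3 lower (2 to 6 higher and 3 to 4 lower without single libraries, the drop in those higher coming without #i replicate 2 or #iii replicate 2 or #iii replicate 3, and 1 and 3 with pooled letters), and as the study chose them with these lines in view they are not independent evidence. Besides those above, *Sox9*, a progenitor factor, differed by 0.25 log2 units (adjusted p = 0.00725) and *Iqgap2*, a scaffold protein, by 0.23 log2 units (adjusted p = 0.0219). The growth factor gene *Fgf13* differed by 0.51 log2 units (adjusted p = 0.00997) and the receptor gene *Fgfr4* by 1.72 log2 units (adjusted p = 0.0213). Against #i none of these passed the threshold. *Cd44*, a surface marker of stem-like cells, had 322, 367 and 277 CPM in the #iii libraries, 429, 422 and 408 in #i and 342, 361 and 291 in #ii, and #iii was lower than #i (-0.38 log2 units, adjusted p = 0.00737) and overlapped with #ii. *Aqp5*, a water channel, differed by -0.72 log2 units (adjusted p = 0.00364) against #i. *Krt20*, *Clca4a*, *Fabp1*, *Fabp2*, *Muc2*, *Apoc2*, *Il1a*, *Fgfr2* and *Fgfr3*, most of them markers of mature cells, averaged under 4 CPM in all 3 lines and did not pass. Of these, *Fabp1* held 2 counts in #iii against 56 in the lumen lines, a ratio of 14.4 (exact counting interval 3.81 to 122). Its log2 difference was -3.63 (adjusted p = 0.237). Its lumen libraries varied, with 3.51, 0.876 and 1.36 CPM in #i and 0, 9.46 and 0.164 in #ii. *Fabp2* had 3 counts against 18 and *Il1a* 1 against 12, with intervals that reached down to 0.903 and 0.915. *Clca4a* and *Apoc2* differed in the other direction (0.72 and 0.19 log2 units).

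Of 137 genes named by rule, 122 were called, and 29 of these lost the call when 1 library was left out. Without #iii replicate 2, 21 were lost (adjusted p = 0.05 to 0.479), the most for any library. *Sox9*, *Apc*, *Acot2*, *Ccl25*, *Acadl* and *mt-Nd5* were lost there and without no other library. *Hmgcs1* was lost only without #iii replicate 1 (adjusted p = 0.0677) and *Peg3* only without #iii replicate 3 (adjusted p = 0.0545). *Cdh1*, *Egln3* and *Fgf13* were lost without either of 2 libraries, and *Creb3l1*, *Fgfr4* and *mt-Nd2* without any of 3. The calls of *Dtx4*, *Igfbp7*, *Iqgap2*, *Muc1* and *Tgfb2* were lost without any of 4 libraries, those of *Ccl6*, *Egr2*, *Tac1* and *mt-Co1* without any of 5, and those of *Ephb3*, *Hes1* and *Igf2r* without any of 6. *Kit* lost its call without 8 of the 9. The remaining 93 called genes, among them the 24 with the largest differences, kept their call without any single library.

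The other crypt lines, #iv and #v, carry letter F, where no lumen line was sequenced. Their mean could thus be set only against organoid AKP of that letter (3 libraries each). Differences given for #iv and #v are those of this mean, which either line alone can move. Among the 13606 genes 1163 genes (8.55%) were higher and 1256 (9.23%) lower. Of the 313 genes lower in #iii than in each lumen line, 134 (42.8%) were also lower in #iv and #v and 28 (8.95%) higher. Of the 294 higher in #iii, 57 (19.4%) were also higher and 26 (8.84%) lower. The libraries of these comparisons are separate, but the reference groups differ, so the shares are given as a description. *Cdkn2a* (-1.14 log2 units, adjusted p = 2.41e-19), *Cdkn2b* (-1.66 log2 units, adjusted p = 6.51e-12), *Timp3* (-1.58 log2 units, adjusted p = 1.42e-16), *Krt14* (-1.30 log2 units, adjusted p = 8.33e-15) and *Lgr6* (-2.10 log2 units, adjusted p = 4.13e-18) were lower in #iv and #v as in #iii, and *Snrpn* (3.81 log2 units, adjusted p = 2.85e-21) and *Pde3b* (3.95 log2 units, adjusted p = 1.13e-09) were higher. Of the p53 list 3 members were higher there and 5 lower. *Cdkn1a* differed by -0.44 log2 units (adjusted p = 0.00557) and *Ccng1* by -0.06 log2 units (adjusted p = 0.793) from organoid AKP. *Krt90* and *Col8a1* did not pass in #iv and #v (-0.23 and 0.31). *Avil* was higher in their mean (1.20 log2 units, adjusted p = 1.73e-06), which rested on #iv. It averaged 176 CPM in #iv, 44.8 in #v and 38.5 in organoid AKP of letter F.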

How the data were processed

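The authors deposited raw counts per Ensembl gene identifier for each of the 33 QuantSeq 3′ libraries, after alignment to GRCm39 with STAR. The counting tool, annotation and strand setting are not given in the sources used here, so a gene and an overlapping antisense gene cannot be told apart. The submitters' processing notes name R 4.1.2, edgeR and limma.

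All 33 libraries were fitted together (edgeR 4.0.16, TMM scaling, robust quasi-likelihood test, R 4.3.3), with a coefficient for each line and code letter, on the 13606 genes that reached 1 CPM in 3 or more libraries. Line #iii was contrasted with the mean of #i and #ii and with each alone. P-values were adjusted over all genes by the Benjamini-Hochberg method, with a threshold of 0.05. Standard errors are the log2 difference divided by the square root of F and are approximate. For folds against a group without counts, 3 counts in the whole group served as the floor. Intervals (95%, exact) cover counting error only. On simulated counts the test recovered 97.5% of 200 changed genes and called 6 unchanged ones. The changed genes were not drawn from those with few counts, and no other differences between lines were simulated. Their changes were larger than the median size of the calls here. The share recovered thus does not apply to small differences or to genes with few counts. Identifiers without a symbol (611 of 32285) held 6.85% of all counts, and those that passed the filter on low counts stayed in the fit.

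The named genes were, first, the 12 called genes per direction that differed most on the log2 scale, provided that the higher side averaged 5 CPM or more, the groups did not overlap and the symbol was not a predicted name. To these were added up to 3 called members per list, ranked by p, and the engineered and study-named genes. The lines compared and the lists were chosen with earlier results of these data known. *Mdm2*, *Bax*, *Bbc3*, *Btg2*, *Phlda3*, *Trp53inp1*, the p53 list members that were not called, *Areg*, *Epgn*, *Tgfa*, *Hbegf*, *Nrg1*, *Mtap*, *Klhl9*, *Focad*, *Plau*, *Col4a2* and the promoters shown were named after their values were seen. Alternatives were RLE scaling, other filters, DESeq2 1.42.0, limma-voom 3.58.1, a fit of the 9 libraries, pooled letters, a replicate block, leaving out unnamed identifiers and leaving out each library. List counts without single libraries or with pooled letters were added after seeing the data. Same-numbered libraries of the 3 lines did not deviate together (correlation -0.127 to 0.103 over 9 pairs), so the numbers do not pair them. Gene coordinates are from GENCODE on GRCm39 and promoter sequences from RefSeq on GRCm38.p6. Some genes counted in the lists are not reported here by name.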

Additional observations from a re-analysis of the deposited data

Results flagged for a closer look

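In *Gpx2* and *Irx3* the lumen lines differed from each other, and line #iii lay between them with a significant difference from each. *Gpx2*, an epithelial glutathione peroxidase, was higher in #ii than in #i by 0.68 on the log2 scale, and *Irx3*, an Iroquois homeobox factor, had a log2 difference of -4.67 between #ii and #i. The difference between the lumen lines was tested in the same edgeR fit for both genes, and a mean of #i and #ii describes neither line in these cases.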

How the results depend on the processing

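Counts of called genes depended on the spread that the fit estimated. A fit that pooled the letter E and letter F libraries of the control, organoid AKP and in vivo AKP groups called 489 genes higher and 486 lower in #iii against the lumen mean, 39 higher and 70 lower against each lumen line, 349 higher and 239 lower in #ii against #i, and 524 higher and 706 lower in crypt lines #iv and #v against organoid AKP, and 52 of the 137 named genes lost their call. The pooled groups hold libraries of both letters, so differences between letters enter the spread of that fit by its construction. With the replicate number as a block in the fit of the 9 libraries, 1068 genes were higher and 1055 lower against the lumen mean, and 166 were higher than each lumen line, against 193 in that fit without the block. The block moved no other count of #iii or of the lumen lines by more than 1.5 times.

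Leaving out 1 library at a time gave 970 to 1384 genes higher and 818 to 1270 lower against the mean (the fewest without #iii replicate 2), 188 to 285 higher and 204 to 334 lower against each lumen line, 720 to 1079 higher and 590 to 956 lower in #ii against #i (the fewest lower without #i replicate 1), and 788 to 1149 higher and 914 to 1231 lower in #iv and #v. Apart from the values above, the other alternatives kept the counts within 1.5 times, with 1325 to 1507 higher by RLE scaling, no filter on low counts, DESeq2 or limma-voom. No named gene changed its direction while called, and 68 of the 122 called kept their call in every one of the 18 alternatives in which they were tested. Depth limits the genes with few counts, such as *Kit* and *Tgfb2*.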
